A study of Mus musculus with 6 samples.

Results

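The genes described here are 46 mouse genes of mitosis, the spindle and the kinetochore. They were chosen by name: a probe belonged to the group where the accession printed for it in the scanner files is that of 1 of these genes. This gave 75 of the 56605 non-control probes of the array, and 46 of the 23462 genes that could be named. The measurement was hybridisation of Cy3-labelled RNA to 1-colour Agilent mouse arrays, on 6 samples of isolated pancreatic acinar cells. The KCS group (3 arrays) came from C57BL/6 mice with Ptf1aCre and Setdb1flox/flox, and the KC group (3 arrays) from C57BL/6 mice with Ptf1aCre and without the floxed Setdb1 alleles. Both groups therefore carry Cre under Ptf1a, a transcription factor of pancreatic progenitors and acinar cells, and both share a further allele that Cre switches on. The groups differ by the floxed alleles of Setdb1, which encodes a histone methyltransferase that silences chromatin. The study's title names its question: whether ductal adenocarcinoma of the pancreas can form without Setdb1, which is said there to restrain apoptosis driven by p53. The labels give no age, and they do not say whether the 3 arrays of a group came from separate animals, so the p-values measure only the spread between these samples, which may be technical.

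In mitosis a cell condenses its chromosomes, builds a spindle of microtubules, attaches each chromosome to it through the kinetochore and then divides. Cyclin-dependent kinase with its cyclins drives entry, the spindle assembly checkpoint holds the cell until every kinetochore is attached, and the anaphase-promoting complex then destroys securin and cyclin so that separase can part the sister chromatids. Most of these genes are transcribed mainly in dividing cells, late in the cycle, and adult acinar cells divide rarely unless the pancreas is injured. Levels below are log2 signals relative to the array's own 75th percentile, so a level of 0 equals that percentile. A difference is the KCS mean minus the KC mean on that scale, with the standard error of the limma fit. A gene was called where limma's p-value, adjusted by Benjamini-Hochberg over all 27103 rows tested, was below 0.05. In bulk samples such as these, fewer cells of a type and less RNA per cell cannot be told apart.

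The arrays of the 2 groups differed in more than these genes. KCS arrays had between 35365 and 35921 probes well above background and a 75th percentile of 347 to 423 scanner units, and KC arrays 26551 to 27235 probes and 61.2 to 68.6 units. The only Setdb1 probe read -0.28, -0.44 and -0.55 in KCS and -0.91, -1.05 and -0.32 in KC, a difference of 0.33 ± 0.24 (limma adjusted p = 0.27). The files do not say whether that probe lies in the floxed stretch, so it is no check of the labels. All 14 acinar markers fell in KCS: their summed signal was 3.77, 17.8 and 2137 times the array's 75th percentile on the 3 KCS arrays, against 40303, 33839 and 37101 times on the KC arrays. The defining markers of acinar cells were thus near absent on KCS replicates 1 and 2, although each was well above background on at least 1 KCS array. Of 13 macrophage markers 12 rose, with sums of 454 to 583 in KCS and 66.5 to 90.1 in KC, and Fcgr1 was well above background on no KC array. All 10 fibroblast markers rose, with sums of 1151 to 1440 in KCS and 206 to 276 in KC. Of 10 ductal markers 5 rose and 1 fell, with sums of 619 to 909 in KCS and 396 to 432 in KC, and of 6 endothelial markers 5 rose and none fell, with sums of 23.4 to 40.7 in KCS and 12.2 to 14.4 in KC. The summed signals of T and NK cell markers (6 of 9 tested higher, 3 lower) were 4.75 to 13.0 in KCS and 11.1 to 21.1 in KC, and Cd3g, Cd8a, Il2rb and Klrb1c were well above background on no KC array. Neutrophil markers (4 of 6 higher, 1 lower) summed to 96.6 to 111 in KCS and 145 to 243 in KC, with Cxcr2 and Mpo on no KC array. The part of these marker changes in the mitosis genes was not tested.

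The mitosis genes were mostly higher in KCS. Of the 46 genes, 31 rose, 1 fell and 14 were not called, while of all rows tested 25.9% were called higher and 34.4% lower, or 60.3% in either direction. Their median difference was 1.11 on the log2 scale, against -0.19 over all rows. All 46 were well above background on every KCS array, and 35 were so on all 6 arrays. Among those 35, 22 rose, against 23.2% of all rows measured on 6 arrays. In 33 genes the lowest KCS array lay above the highest KC array (29.8% of all rows), and in 1 gene all KCS arrays lay below all KC arrays (38.4% of all rows). The genes that rose and were measured on at least 1 KC array numbered 24, and their differences ran between 0.88 for Smc4 and 2.63 for Espl1. The other 7 genes that rose, Bub1, Bub1b, Ttk, Cenph, Kif11, Kif2c and Kif4, were well above background on no KC array. So were 4160 of the 27103 rows tested, a similar share, so this is not particular to these genes. All 7 entered the test through their KCS arrays alone. For these only an approximate lower bound on the fold can be given, set against the faintest spot well above background on each KC array. The probe's own signal was used where that was higher, since a probe brighter than that spot could still not be well above background. The bounds ran between 1.14 and 4.12. With these 7 genes at their bounds the median of all 46 was 0.99. The plot of levels on each array shows every gene by its role.

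**Figure D1:**
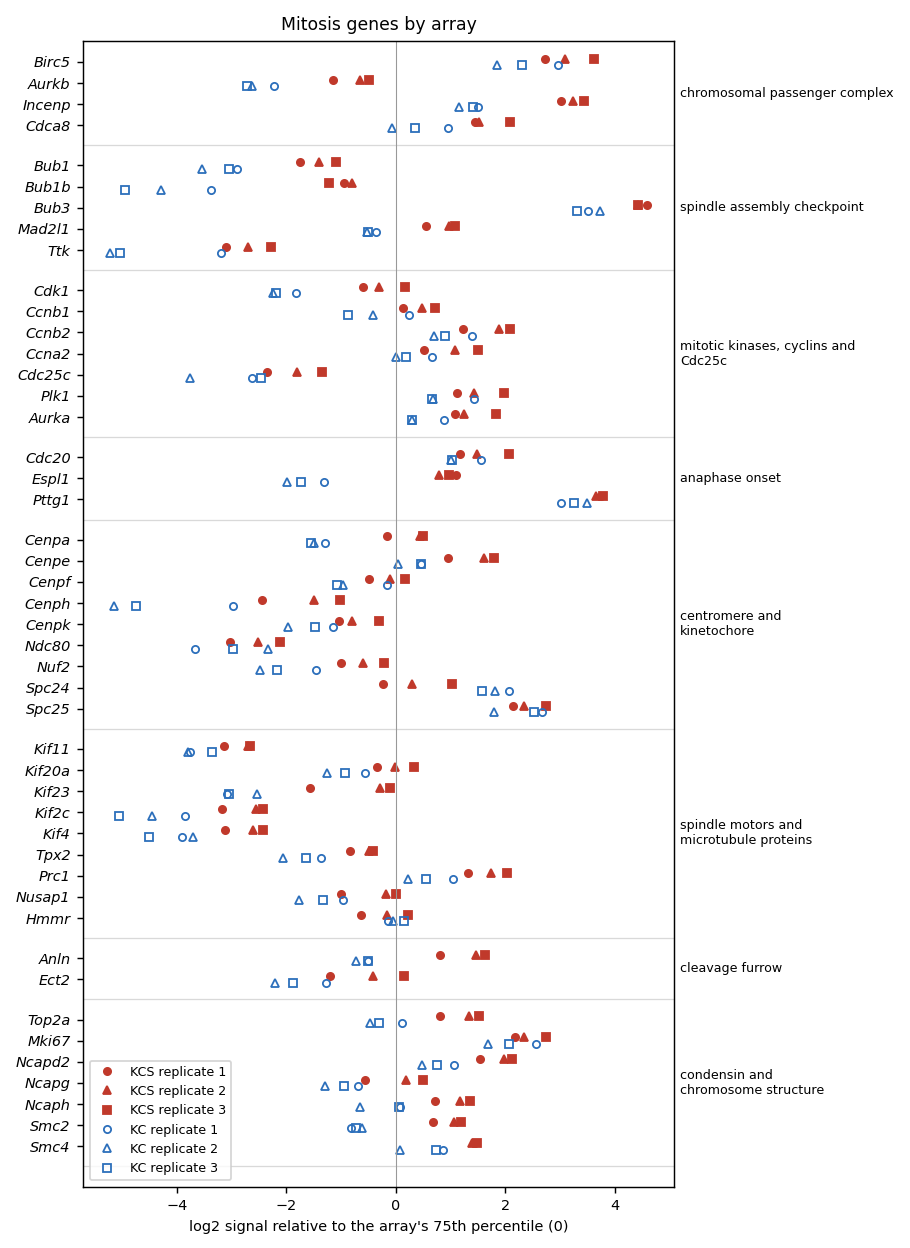
Level of each of the 46 mitosis genes on each array (log2 signal relative to the array's 75th percentile), with filled red symbols for the 3 KCS arrays and open blue symbols for the 3 KC arrays. In 33 genes every KCS symbol lies to the right of every KC symbol, and in Spc24 all 3 KCS symbols lie to the left.

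The balance of higher and lower over all rows depended on the scaling, and both the 75th percentile and the median of the arrays differed between groups. Among the mitosis genes more were called higher than lower under each scaling, and only Hmmr and Spc24 changed sign. When arrays were centred on their median, the median of all rows moved to 0.16, with 9150 rows higher and 7043 lower in place of 7016 and 9329, and 40 mitosis genes rose and 1 fell, against 33.8% and 26% of all rows. When arrays were scaled to 8 spiked-in control probes, the median of all rows was 2.60, with 23385 rows higher and 827 lower, and all 46 mitosis genes were higher, with a median of 3.90, against 86.3% of all rows higher and 3.05% lower. Quantile normalization gave an all-row median near 0 and 34 genes higher with 1 lower, against 29.2% and 29.3% of all rows. The differences given below are those under 75th percentile scaling, where the all-row median was -0.19.

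Many late cell cycle genes share a pair of short promoter elements. The first is the cell cycle genes homology region, to which the MuvB core of the DREAM and MYB-MuvB complexes binds through Lin54, and the second is the CCAAT box, which NF-Y binds. RefSeq promoters of GRCm38.p6, each 250 bases before and 50 bases after an annotated start, were at hand for 38 of the 46 genes, and those of Aurkb, Ccna2, Cdc25c, Incenp, Kif20a, Smc4, Spc24 and Tpx2 were not searched. TTTGAA on either strand stood in a promoter of 27 of the 38 genes (71.1%), against 20.2% of 27025 genes. In the last 100 bases of the window it stood in 24 of the 38 (63.2%), against 5.72% of all genes. CCAAT on either strand stood in 29 (76.3%), against 41.1% of all genes, and both stood in the same promoter in 24 (63.2%), against 7.97%. Birc5, Mad2l1, Ncaph, Nuf2, Nusap1 and Pttg1 had neither run of letters in this window. Of the 27 genes with TTTGAA 19 rose, with a median difference of 1.11. Of the 11 with no such run in this window 7 rose, with a median of 1.14, while 25.9% of all rows were called higher. Both medians take genes well above background on no KC array without bounds. Whether the element bears on the differences was not tested. A match is a run of letters, not a shown binding site.

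The promoters of 6 genes with both elements are printed below. TTTGAA (or TTCAAA, its reverse complement) and CCAAT (or ATTGG) are in capitals, with no overlap between motifs. Bub1b (chr2:118597961-118598260, plus strand), Espl1 (chr15:102296043-102296342, plus strand) and Cdk1 (chr10:69352863-69353162, minus strand) rose in KCS, while Ccnb2 (chr9:70421505-70421804, minus strand), Cdc20 (chr4:118437294-118437593, minus strand) and Hmmr (chr11:40733388-40733687, minus strand) were not called. All coordinates are of GRCm38.p6, and each sequence is on the gene's own strand.
Bub1b: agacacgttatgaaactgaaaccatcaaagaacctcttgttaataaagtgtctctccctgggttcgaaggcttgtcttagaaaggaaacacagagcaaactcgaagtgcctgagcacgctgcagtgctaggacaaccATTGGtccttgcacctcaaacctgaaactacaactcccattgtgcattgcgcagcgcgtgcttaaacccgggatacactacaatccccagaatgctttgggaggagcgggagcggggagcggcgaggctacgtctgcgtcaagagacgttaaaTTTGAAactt
Espl1: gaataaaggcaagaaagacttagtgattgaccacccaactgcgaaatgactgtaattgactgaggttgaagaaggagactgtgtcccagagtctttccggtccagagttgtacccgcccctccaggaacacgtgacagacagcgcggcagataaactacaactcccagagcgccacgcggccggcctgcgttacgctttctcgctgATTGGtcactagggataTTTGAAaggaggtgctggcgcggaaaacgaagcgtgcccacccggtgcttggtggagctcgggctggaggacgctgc
Cdk1: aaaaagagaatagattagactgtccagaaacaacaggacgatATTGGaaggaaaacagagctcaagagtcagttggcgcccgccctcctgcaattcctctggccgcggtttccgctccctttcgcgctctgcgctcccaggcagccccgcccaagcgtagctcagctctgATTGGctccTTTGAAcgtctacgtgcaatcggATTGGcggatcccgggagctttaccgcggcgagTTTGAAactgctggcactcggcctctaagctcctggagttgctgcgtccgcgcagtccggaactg
Ccnb2: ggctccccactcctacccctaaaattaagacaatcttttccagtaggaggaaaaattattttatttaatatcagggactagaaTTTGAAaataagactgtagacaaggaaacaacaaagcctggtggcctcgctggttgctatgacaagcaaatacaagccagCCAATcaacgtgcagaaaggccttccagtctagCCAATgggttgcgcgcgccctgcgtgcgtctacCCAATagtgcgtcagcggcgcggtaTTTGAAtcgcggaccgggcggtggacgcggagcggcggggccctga
Cdc20: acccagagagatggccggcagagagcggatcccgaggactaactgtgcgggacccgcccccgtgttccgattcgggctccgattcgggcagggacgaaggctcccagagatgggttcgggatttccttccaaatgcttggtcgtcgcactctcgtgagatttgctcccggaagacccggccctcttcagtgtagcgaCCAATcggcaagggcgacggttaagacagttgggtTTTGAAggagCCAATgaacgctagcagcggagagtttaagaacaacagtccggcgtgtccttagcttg
Hmmr: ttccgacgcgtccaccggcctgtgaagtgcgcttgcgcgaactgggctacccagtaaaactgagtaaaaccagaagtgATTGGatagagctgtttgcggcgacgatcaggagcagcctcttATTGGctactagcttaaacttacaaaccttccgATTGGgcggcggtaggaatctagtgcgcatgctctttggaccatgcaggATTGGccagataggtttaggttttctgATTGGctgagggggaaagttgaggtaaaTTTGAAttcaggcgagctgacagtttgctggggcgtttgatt
With the annotated start as base 1, TTTGAA began at base 41 in Bub1b, at base -27 in Espl1, at bases -71 and -15 in Cdk1, at bases -167 and 5 in Ccnb2, at base -18 in Cdc20 and at base 9 in Hmmr. Hmmr, the gene of these 6 that differed least from 0 in its fit, held 5 CCAAT boxes, and Bub1b held 1.

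All 5 genes of the spindle assembly checkpoint were called higher, against 25.9% of all rows. In 3 of them, Bub1, Bub1b and Ttk, no KC array was well above background, so these entered the test through their KCS arrays alone. Only the other 2, Mad2l1 and Bub3, were measured on all 6 arrays. The list's median of 1.75 is the difference of Bub1, so it rests on KC signals too faint to measure. Bub1b encodes BubR1, the checkpoint protein that binds and blocks Cdc20. Its level was -0.96, -0.80 and -1.22 in KCS, against -3.39, -4.30 and -4.95 in KC, where no array was well above background. The fold of Bub1b was 4.12 or more (limma adjusted p = 7.93e-04), and all 6 fits with 1 array left out called it. Bub1 encodes the kinase that gathers the other checkpoint proteins at the kinetochore, and read -1.75, -1.40 and -1.10 in KCS and -2.90, -3.54 and -3.05 in KC. That made it at least 2.93-fold higher, with an adjusted p of 0.00169. Ttk, the kinase known as Mps1 that starts checkpoint signalling, read -3.10, -2.70 and -2.28 in KCS and -3.19, -5.22 and -5.04 in KC. The groups did not overlap, but KCS replicate 1 and KC replicate 1 lay only 0.09 apart. Ttk was at least 1.27-fold higher (adjusted p = 0.0313), and the call was lost without KCS replicate 2 or 3 or KC replicate 2 or 3 (adjusted p up to 0.0985). Mad2l1 encodes Mad2, the inhibitor that unattached kinetochores turn on. It rose by 1.34 ± 0.20 (adjusted p = 0.00178), with levels of 0.56, 0.98 and 1.08 in KCS and -0.35, -0.53 and -0.52 in KC. Bub3, which carries Bub1 and BubR1 to kinetochores, rose by 0.97 ± 0.19 (adjusted p = 0.00462), with levels of 4.60, 4.42 and 4.43 in KCS and 3.51, 3.73 and 3.30 in KC. Bub3 was among the few genes whose difference on the first slide was not the smaller one.

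The chromosomal passenger complex corrects faulty attachments and later marks the site of division, and 3 of its 4 genes rose, with a median of 1.51. Incenp, the scaffold of the complex, had levels of 3.03, 3.24 and 3.44 in KCS and 1.5, 1.16 and 1.41 in KC. It rose by 1.88 ± 0.20 (limma adjusted p = 4.32e-04), more than the range within either group. Aurkb encodes the Aurora B kinase of the complex, and read -1.15, -0.65 and -0.50 in KCS and -2.22, -2.63 and -2.73 in KC, well above background on 2 of the 3 KC arrays. Its rise was 1.76 ± 0.25 (adjusted p = 0.00134). Cdca8, which encodes borealin, a targeting subunit, rose by 1.27 ± 0.32 (adjusted p = 0.014), with 1.44, 1.52 and 2.08 in KCS and 0.96, -0.06 and 0.35 in KC. Birc5 encodes survivin, which docks the complex on the centromere and is also counted among the inhibitors of apoptosis. Birc5 read 2.73, 3.09 and 3.62 in KCS and 2.96, 1.84 and 2.31 in KC, so that KC replicate 1 lay inside the KCS range. Its difference was 0.77 ± 0.36 (adjusted p = 0.105), and it was called without KC replicate 1 (adjusted p = 0.0373). A second tested probe of Birc5, well above background on all arrays, was at 0.10 ± 0.82.

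Of the 7 kinases, cyclins and the phosphatase that drive entry into mitosis, 2 rose and 5 were not called, with a median of 0.78. Cdk1, the mitotic kinase itself, had levels of -0.60, -0.31 and 0.16 in KCS and -1.83, -2.24 and -2.20 in KC. It rose by 1.84 ± 0.25 (limma adjusted p = 0.00119), and all 6 fits with 1 array left out called it. Aurka, the Aurora A kinase of the spindle poles, rose by 0.89 ± 0.28 (adjusted p = 0.0319), with 1.08, 1.25 and 1.84 in KCS and 0.89, 0.29 and 0.30 in KC. That call was lost without KCS replicate 2 or 3 or KC replicate 2 or 3 (adjusted p up to 0.0937). The cyclin genes did not pass the test, although their partner Cdk1 did. Ccnb1, cyclin B1, read 0.13, 0.47 and 0.71 in KCS and 0.25, -0.42 and -0.87 in KC, a difference of 0.78 ± 0.33 (adjusted p = 0.0767). Ccnb2, cyclin B2, read 1.23, 1.89 and 2.09 in KCS and 1.40, 0.69 and 0.89 in KC, a difference of 0.74 ± 0.30 (adjusted p = 0.0728). Ccna2, cyclin A2, read 0.52, 1.08 and 1.49 in KCS and 0.66, 0.00 and 0.19 in KC, a difference of 0.75 ± 0.31 (adjusted p = 0.0755). In all 3 cyclin genes KC replicate 1 lay above KCS replicate 1, and the other KC arrays lay below every KCS array. Ccnb1 was called without KC replicate 1 (adjusted p = 0.0191), Ccna2 without KCS replicate 1 (adjusted p = 0.0298), and Ccnb2 without either (adjusted p = 0.0452 and 0.0281). The 3 tested probes of Ccnb1 disagreed, with differences between -0.57 and 1.62. Plk1, the polo-like kinase of spindle and kinetochore, read 1.12, 1.44 and 1.97 in KCS and 1.42, 0.67 and 0.67 in KC, a difference of 0.59 ± 0.32 (adjusted p = 0.151). Cdc25c, the phosphatase that activates Cdk1, read -2.36, -1.81 and -1.35 in KCS and -2.63, -3.75 and -2.46 in KC, 2 of whose arrays were well above background. The groups did not overlap, and the difference of 1.11 ± 0.42 (adjusted p = 0.0585) passed without KCS replicate 1 (adjusted p = 0.0444) and in no other fit with 1 array left out.

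At the onset of anaphase the result differed by gene. Espl1 encodes separase, the protease that cuts cohesin. It had levels of 1.09, 0.79 and 0.97 in KCS, against -1.31, -1.98 and -1.74 in KC. The rise of 2.63 ± 0.23 (limma adjusted p = 2.40e-04) was larger than the range within either group, and it was 2.41 on the first slide and 2.74 on the second. Pttg1, securin, which holds separase inactive, read 3.75, 3.65 and 3.78 in KCS and 3.01, 3.49 and 3.25 in KC. Its groups did not overlap, and its difference of 0.48 ± 0.19 (adjusted p = 0.0657) passed without KC replicate 2 (adjusted p = 0.0412) and in no other fit with 1 array left out. A second tested probe of Pttg1, well above background on no KC array, was at 0.01. Cdc20, which activates the anaphase-promoting complex and is the target of the checkpoint, read 1.17, 1.49 and 2.07 in KCS and 1.56, 1.02 and 1.03 in KC. Its difference was 0.37 ± 0.29 (adjusted p = 0.304), with overlapping groups, and no fit with 1 array left out called it.

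Of 9 genes of the centromere and kinetochore, 4 rose, 1 fell and 4 were not called, with a median of 0.82. Cenpa encodes the histone H3 variant that marks the centromere, and read -0.15, 0.44 and 0.49 in KCS and -1.29, -1.50 and -1.55 in KC. It rose by 1.71 ± 0.23 (limma adjusted p = 0.00114), and its KC levels lay within a narrow range. Cenph, a subunit of the constitutive centromere network, read -2.44, -1.49 and -1.01 in KCS and -2.97, -5.15 and -4.75 in KC, where it was well above background on no array. Its fold was 2.53 or more in favour of KCS (adjusted p = 0.0119). Cenpk, its partner in that network, read -1.04, -0.81 and -0.30 in KCS and -1.14, -1.96 and -1.48 in KC. At 0.82 ± 0.30 its adjusted p of 0.051 lay just past the threshold, and it passed without KC replicate 1 (adjusted p = 0.0352) or KCS replicate 1 (adjusted p = 0.0479). Cenpe, the kinetochore motor that brings chromosomes to the equator, rose by 1.14 ± 0.27 (adjusted p = 0.0114), with 0.96, 1.62 and 1.80 in KCS and 0.46, 0.04 and 0.45 in KC. Cenpf, a large protein of the outer kinetochore, read -0.49, -0.11 and 0.16 in KCS and -0.17, -0.97 and -1.08 in KC. Its difference was 0.59 ± 0.31 (adjusted p = 0.141), it passed without KC replicate 1 (adjusted p = 0.032), and its second probe had the other sign, at -0.35.

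The 4 subunits of the Ndc80 complex, which grips microtubules at the outer kinetochore, did not move together. Nuf2 rose by 1.43 ± 0.33 (limma adjusted p = 0.00993), with levels of -1.0, -0.59 and -0.22 in KCS and -1.46, -2.48 and -2.17 in KC. Ndc80 itself, the partner of Nuf2, read -3.03, -2.53 and -2.11 in KCS and -3.67, -2.33 and -2.97 in KC, where 1 array was well above background. Its groups overlapped, with a difference of 0.44 ± 0.40 (adjusted p = 0.375). Of all 46 genes, Spc24 alone fell. Its level was -0.23, 0.29 and 1.02 in KCS, against 2.07, 1.82 and 1.57 in KC, and it fell by 1.46 ± 0.34 (adjusted p = 0.0104). All 6 fits with 1 array left out called Spc24 lower, but with spike-in scaling its difference was 1.33, in the other direction. Spc25, the partner of Spc24, read 2.15, 2.34 and 2.74 in KCS and 2.68, 1.79 and 2.53 in KC, with a difference of 0.08 ± 0.30 (adjusted p = 0.836). Its sign turned to -0.19 without KC replicate 2 and to -0.09 without KCS replicate 3.

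Of 9 genes for spindle motors and microtubule proteins, 8 rose and 1 was not called, with a median of 1.09. That median includes 3 genes well above background on no KC array, which entered the test through KCS alone and are taken without their bounds. Kif23, a motor of the central spindle that acts in cytokinesis, read -1.57, -0.29 and -0.11 in KCS and -3.08, -2.54 and -3.05 in KC, where 1 array was well above background. Its rise was 2.24 ± 0.42 (limma adjusted p = 0.00402). Prc1, which bundles the antiparallel microtubules of the central spindle, rose by 1.09 ± 0.29 (adjusted p = 0.0174), with 1.32, 1.74 and 2.03 in KCS and 1.05, 0.22 and 0.55 in KC. Kif20a, another motor of the central spindle, rose by 0.91 ± 0.27 (adjusted p = 0.0247), with -0.34, -0.01 and 0.33 in KCS and -0.56, -1.26 and -0.92 in KC. The calls of Prc1 and Kif20a were lost without KCS replicate 2 or 3 or KC replicate 2 or 3 (adjusted p up to 0.0554 and 0.0702). Tpx2, which activates Aurora A and seeds microtubules around chromosomes, rose by 1.11 ± 0.24 (adjusted p = 0.00769), with -0.83, -0.50 and -0.42 in KCS and -1.37, -2.06 and -1.65 in KC. Its groups did not overlap, and all 6 fits with 1 array left out called it.

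The remaining motors were faint in KC. Kif2c, which takes microtubules apart at the kinetochore, read -3.17, -2.56 and -2.43 in KCS and -3.85, -4.46 and -5.06 in KC. Kif4, a motor of chromosome arms, read -3.11, -2.61 and -2.43 in KCS and -3.90, -3.70 and -4.52 in KC. Kif11, the motor that pushes the spindle poles apart, read -3.14, -2.71 and -2.66 in KCS and -3.76, -3.80 and -3.37 in KC. None of the 3 was well above background on a KC array, and their KCS levels were higher by at least 1.24-fold, 1.25-fold and 1.14-fold (limma adjusted p = 0.00634, 0.00832 and 0.0196). The call of Kif11 was lost without KCS replicate 2 or 3 or KC replicate 1 or 2 (adjusted p up to 0.0715). Nusap1, which stabilises spindle microtubules, read -0.99, -0.18 and 0.00 in KCS and -0.97, -1.78 and -1.32 in KC. It rose by 0.97 ± 0.34 (adjusted p = 0.0455) although KCS replicate 1 lay just below KC replicate 1, and the call was lost without KCS replicate 2 or 3 or KC replicate 2 or 3 (adjusted p up to 0.131). Hmmr, a hyaluronan receptor that also binds the spindle, read -0.63, -0.17 and 0.23 in KCS and -0.15, -0.05 and 0.14 in KC. It was the only gene besides Spc24 with a difference below 0, at -0.17 ± 0.26 (adjusted p = 0.582), and the sign turned to 0.05 without KCS replicate 1. The other tested probes of Hmmr were both at -0.51.

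Both genes of the cleavage furrow rose. Anln encodes anillin, the scaffold of the contractile ring, and read 0.81, 1.47 and 1.64 in KCS and -0.50, -0.72 and -0.51 in KC. It rose by 1.88 ± 0.26 (limma adjusted p = 0.00115), with no overlap between the groups. Ect2, the exchange factor that switches on RhoA at the furrow, read -1.21, -0.41 and 0.15 in KCS and -1.28, -2.20 and -1.88 in KC. Its rise of 1.29 ± 0.41 (adjusted p = 0.0312) came almost wholly from the second slide, where the difference was 1.91, against 0.06 on the first. The call of Ect2 was lost without KCS replicate 2 or 3 or KC replicate 2 or 3 (adjusted p up to 0.0949).

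Of 7 genes of condensin and chromosome structure, 6 rose, with a median of 1.11. Smc2, a core subunit of both condensins, read 0.69, 1.07 and 1.18 in KCS and -0.82, -0.62 and -0.73 in KC. It rose by 1.70 ± 0.20 (limma adjusted p = 6.33e-04), while its 3 tested probes ran between 0.42 and 1.70. Smc4, its partner, rose by 0.88 ± 0.24 (adjusted p = 0.0196), with 1.45, 1.39 and 1.48 in KCS and 0.86, 0.08 and 0.73 in KC. The Smc4 call was lost without any single KCS array (adjusted p up to 0.0542), and the 3 tested probes of Smc4 ran between 0.49 and 0.88. The 3 other subunits are those of condensin I. Ncapd2 rose by 1.11 ± 0.25 (adjusted p = 0.00801), with 1.54, 1.98 and 2.13 in KCS and 1.06, 0.48 and 0.76 in KC. Ncaph rose by 1.26 ± 0.29 (adjusted p = 0.0093), with 0.71, 1.18 and 1.36 in KCS and 0.07, -0.66 and 0.07 in KC. Ncapg rose by 1.02 ± 0.32 (adjusted p = 0.0301), with -0.56, 0.19 and 0.49 in KCS and -0.70, -1.29 and -0.95 in KC. The Ncapg call was lost without KCS replicate 2 or 3 or KC replicate 2 or 3 (adjusted p up to 0.0921). Top2a, the topoisomerase that untangles chromosomes, rose by 1.44 ± 0.26 (adjusted p = 0.00374), with 0.82, 1.33 and 1.52 in KCS and 0.12, -0.48 and -0.31 in KC. Mki67, the proliferation antigen that coats mitotic chromosomes, read 2.18, 2.35 and 2.74 in KCS and 2.56, 1.68 and 2.08 in KC. At 0.32 ± 0.28 (adjusted p = 0.366) Mki67 was not called, and no fit with 1 array left out called it.

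**Figure D2:**
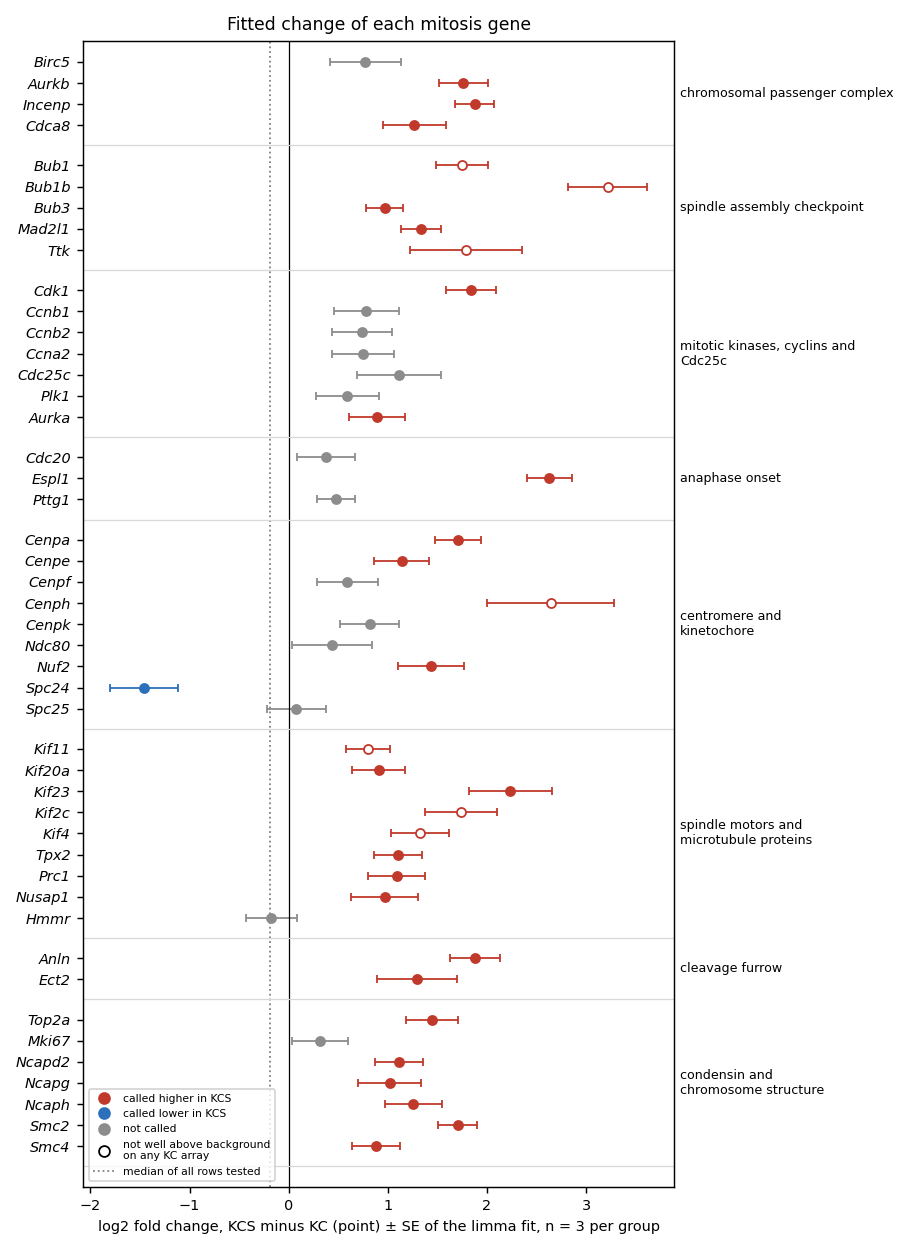
Difference between KCS and KC for each of the 46 mitosis genes (points, KCS minus KC on the log2 scale, with bars of 1 SE of the limma fit, n = 3 arrays a group). Red points are the 31 genes called higher, blue is Spc24, grey are the 14 not called, open points are the 7 genes well above background on no KC array, and the dotted line is the all-row median of -0.19.

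The genes shared a pattern over the arrays that their choice did not use. KCS replicate 3 was the highest KCS array in 43 of the 46 genes, against 32.9% of all rows, and KCS replicate 1 the lowest in 41, against 32.6%. KC replicate 1 was the highest KC array in 37, against 33.4%. The median level of the 46 genes was -0.01, 0.45 and 0.84 on KCS replicates 1, 2 and 3, and -0.43, -0.69 and -0.80 on the KC arrays. KCS replicate 3 was also the KCS array with the largest summed acinar, ductal and neutrophil marker signals. Its summed macrophage, fibroblast and endothelial signals were the smallest of the KCS arrays, and its T and NK cell sum lay between the others. Whether these sums bear on the pattern was not tested. All 14 genes that were not called had their highest KCS level on KCS replicate 3, and 10 of them had their highest KC level on KC replicate 1. The counts over all 46 genes show that most genes that rose did the same, so this is not particular to the genes not called. Since these genes were read from the same 6 arrays, they are not independent counts of this pattern.

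**Figure D3:**
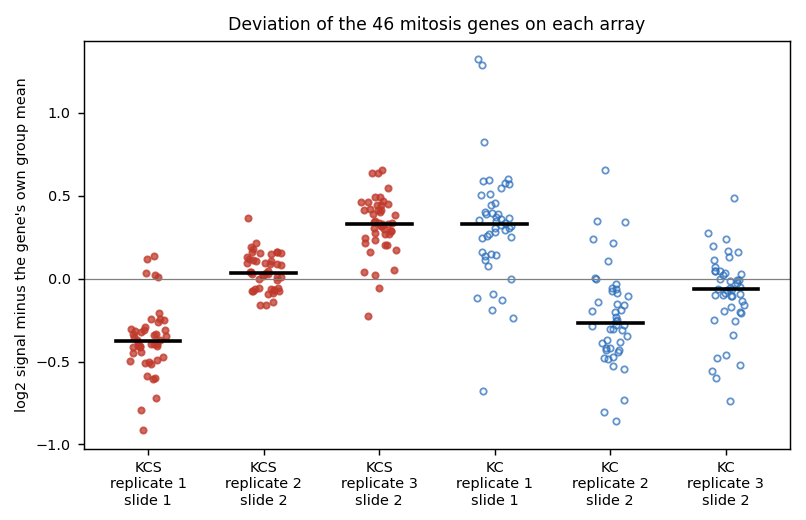
Level of each mitosis gene on an array minus that gene's mean over its own group (log2), with 1 point a gene, KCS arrays left and KC arrays right, and a bar at the median. KCS replicate 3 and KC replicate 1 lie above 0 for most genes, and KCS replicate 1 and KC replicate 2 below it.

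KCS replicate 1 and KC replicate 1 shared the first slide, and replicates 2 and 3 of both groups the second. The median difference of the 46 genes was 0.49 on the first slide alone and 1.46 on the second alone, while the medians of all rows were -0.15 and -0.21. The signed difference was higher within the second slide in 43 genes, a count for which the share of all rows was not taken. Among these 43 genes, Spc24, Hmmr and Spc25 had differences smaller in size on the second slide. They were at -1.04, -0.02 and 0.38 there, against -2.30, -0.49 and -0.53 on the first. The difference was above 0 in 34 genes on the first slide (46.4% of all rows), in 44 on the second (43.9%) and in 34 on both (39.3%). The first slide holds 1 array a group and allows no test, while within the second slide alone limma called 38 genes higher (20.9% of all rows) and 0 lower (30.8%), with Spc24 at -1.04 (adjusted p = 0.053). With slide as a block in the fit, 30 genes rose (26.8% of all rows) and 1 fell (36.7%), and Nusap1 was the call that was lost (adjusted p = 0.0582). The genes that rose had a median of 0.64 on the first slide and 1.80 on the second. The 14 that were not called had a median of -0.20 on the first and 1.04 on the second, and in 9 of the 14 the sign differed between slides. Bub3, Pttg1 and Ndc80 had the higher signed difference on the first slide, at 1.09, 0.74 and 0.64, against 0.91, 0.35 and 0.33 on the second. Slide and the single arrays on it cannot be told apart, because the first slide holds only 1 array of each group.

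**Figure D4:**
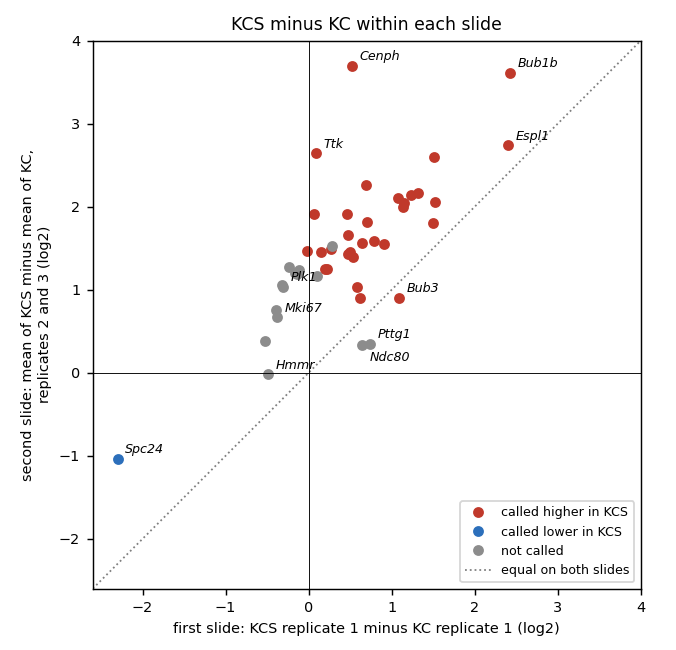
Difference of each mitosis gene on the first slide alone (x axis, KCS replicate 1 minus KC replicate 1) and on the second alone (y axis, mean of KCS minus mean of KC over replicates 2 and 3), both log2, coloured by the call. In 43 of the 46 genes the point lies above the dotted line of equal differences, and the share of all rows above it was not taken.

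Leaving out 1 array at a time kept 22 of the 31 genes that rose called in all 6 fits. The other 9, Ttk, Aurka, Kif11, Kif20a, Prc1, Nusap1, Ect2, Ncapg and Smc4, lost the call in at least 1 fit, and 8 of the 14 uncalled genes gained it in at least 1. The number called higher ran between 22 without KCS replicate 2 or KCS replicate 3 and 35 without KC replicate 1. Of all rows these fits called 21.1%, 24.1% and 23.4% higher, in that order. Of the 46 genes, 21 had several tested probes, and in 19 of these every probe had the same sign, with Ccnb1 and Cenpf as the exceptions.

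Other genes of the same process were also called higher more often than lower. Of 79 further mitotic genes, 78 were tested, and 45 rose, 2 fell and 31 were not called, with a median of 1.06. Of all rows 25.9% were called higher and 34.4% lower. Of the 78 genes, 43 were well above background on all 6 arrays, and 22 were so on no KC array. These 22 entered the test through their KCS arrays alone. The count of 45 includes genes of this kind, and the median takes them without bounds. Cenpt, which links the centromere to the Ndc80 complex, rose by 2.70 ± 0.22 (limma adjusted p = 2.03e-04), with -0.09, 0.22 and -0.04 in KCS and -2.77, -2.90 and -2.33 in KC. Cenpl, of the same centromere network, rose by 1.93 ± 0.22 (adjusted p = 6.13e-04). Cenps, a histone-fold protein of the centromere, and Kif18b, a motor of microtubule ends, were called higher (adjusted p = 2.86e-04 and 3.36e-04) but were well above background on no KC array. Cenps was higher by at least 1.36-fold, and Kif18b has no usable fold. The 2 that fell were Cep55, which recruits the machinery of abscission, by 1.22 ± 0.42 (adjusted p = 0.0417), and Racgap1, the partner of Kif23 in centralspindlin, by 0.90 ± 0.29 (adjusted p = 0.034). A second Racgap1 probe had the other sign, at 0.69, and the calls of Racgap1 and Cep55 were lost in 4 and 5 of the 6 fits with 1 array left out.

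The anaphase-promoting complex marks mitotic proteins for destruction, and cohesin holds the sister chromatids together. Of 15 genes of the anaphase-promoting complex 4 rose (26.7%) and 4 fell (26.7%), with a median of 0.39, while 25.9% of all rows were called higher and 34.4% lower. Anapc10, a substrate receptor subunit, rose by 1.67 ± 0.20 (limma adjusted p = 7.64e-04), and Anapc13 fell by 1.13 ± 0.18 (adjusted p = 0.00234). The other calls were smaller than 1 on the log2 scale: Anapc15, Anapc2 and Cdc27 at 0.62, 0.53 and 0.49, and Anapc5, Cdc26 and Anapc16 at -0.57, -0.49 and -0.47. With 1 array left out, 1 to 3 genes of this list were called in each direction. Of 12 cohesin genes 3 rose (25%, near the share of all rows) and 1 fell (8.33%), with a median of 0.24. Pds5b, a cohesin regulator, rose by 1.52 ± 0.23 (adjusted p = 0.0017), Stag1 and Smc3, 2 subunits of the ring, were called at 0.55 and 0.52, and Mau2, of the cohesin loader, fell by 0.95 ± 0.30 (adjusted p = 0.0303). With 1 array left out, 1 to 2 cohesin genes were called higher and 0 to 1 lower.

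Among 19 regulators of cell cycle transcription 11 rose (25.9% of all rows) and 3 fell (34.4%), with a median of 0.66. Foxm1, the activator of late cell cycle genes, read -0.09, 0.17 and 0.35 in KCS and -0.68, -1.53 and -1.06 in KC. It rose by 1.23 ± 0.27 (limma adjusted p = 0.00748), with KCS and KC arrays apart. Rbl1, the pocket protein p107, rose by 2.50 ± 0.27 (adjusted p = 4.86e-04), and E2f8, a repressor that itself is made late in the cycle, by 2.73 ± 0.43 (adjusted p = 0.00206). E2f7, its relative, rose by 1.51 ± 0.31 (adjusted p = 0.00633), though its second probe read -1.66. The probes of Rbl1 ran between 0.29 and 2.50. The 3 genes that fell were Lin52 and Lin37, both subunits of the MuvB core, and Tfdp2, a partner of E2F factors. Lin52 read 0.51, 0.14 and 0.24 in KCS and 2.57, 2.47 and 2.60 in KC, and fell by 2.25 ± 0.18 (adjusted p = 1.89e-04). Lin37 read 1.13, 1.02 and 1.20 in KCS and 3.24, 2.80 and 3.26 in KC, and fell by 1.98 ± 0.20 (adjusted p = 3.70e-04). Both groups lay far apart in these 2 genes, and the third, Tfdp2, fell by 2.26 ± 0.23 (adjusted p = 4.01e-04). Lin54, the DNA-binding subunit, was not called at 0.35 ± 0.26 (adjusted p = 0.277), nor was Mybl2, which joins MuvB in S phase, at -0.60 ± 0.39 (adjusted p = 0.229). E2f4 and Rbl2, of the DREAM repressor, were not called at 0.66 ± 0.36 and -0.56 ± 0.27 (adjusted p = 0.161 and 0.118). With 1 array left out, 5 to 10 genes of this list were called higher and 3 lower.

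Of 43 DNA replication genes 28 rose (25.9% of all rows) and 3 fell (34.4%), with a median of 1.11. Mcm3 and Mcm4, of the helicase that opens the DNA, rose by 3.66 ± 0.20 and 2.91 ± 0.21 (limma adjusted p = 8.75e-05 and 1.49e-04), and Mcm6 by 2.34 ± 0.22 (adjusted p = 2.95e-04). Rrm1, the large subunit of ribonucleotide reductase, rose by 2.29 ± 0.18 (adjusted p = 1.97e-04). Pold2, a subunit of DNA polymerase delta, fell by 1.83 ± 0.20 (adjusted p = 5.37e-04), and Gins3 by 1.15 ± 0.24 (adjusted p = 0.00608). Cdc45, called lower, was well above background on no KC array and so has no usable fold. A second tested probe of Cdc45 had the other sign, at 1.18. The median of the replication genes was 0.90 on the first slide and 1.21 on the second, while the mitosis genes had 0.49 and 1.46. The gap between the slides was thus wider for the mitosis genes, a difference between the lists that was not tested.

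**Figure D5:**
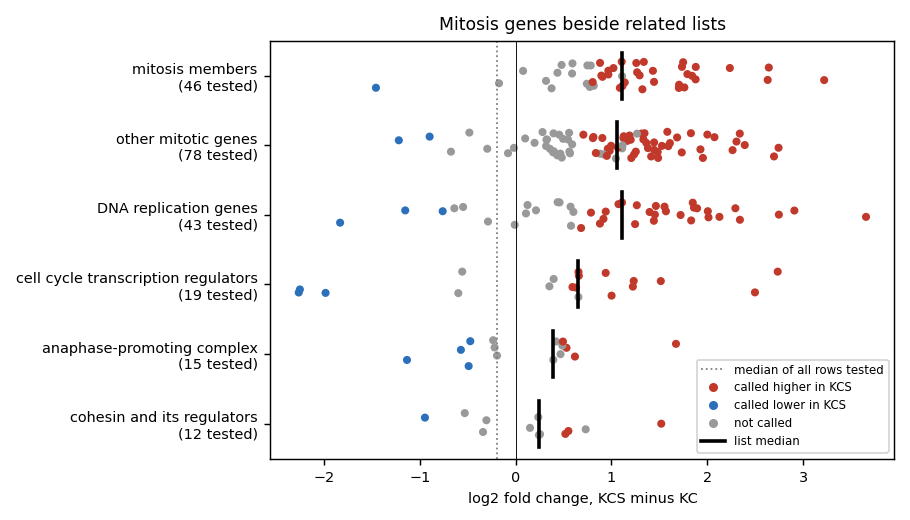
Difference between KCS and KC (log2) of each tested gene in the 46 mitosis genes and the 5 related lists, with 1 point a gene, red for called higher, blue for called lower and grey for not called, a black bar at each list's median and a dotted line at the all-row median of -0.19. The mitosis genes, the other mitotic genes and the replication genes have medians of 1.11, 1.06 and 1.11, and the anaphase-promoting complex and cohesin of 0.39 and 0.24. Genes well above background on no KC array are included without bounds, among them 7 mitosis genes, 22 other mitotic genes and 3 replication genes.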

How the data were processed

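RNA of 3 KCS and 3 KC samples of isolated acinar cells was labelled with Cy3 and hybridised to 1-colour Agilent mouse arrays, and groups were taken from the sample titles. The deposited scanner intensities were made with Agilent Feature Extraction 12.0.3.1, which subtracted background and corrected spatial trends within each array, per the file headers and the submitters' processing notes. The processed intensities of each probe's spots were averaged here without outlier spots, turned into log2 values and scaled by subtracting each array's 75th percentile over non-control probes. The deposited value table holds log2 values that matched these after centring each probe (largest difference 0.15). Its column medians ran from -0.05 on KCS replicate 1 to 0.10 on KC replicate 3, and its scaling and centring are not stated, though its direction is the same.

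Probes were named by matching their accessions, without version, to RefSeq genes of GRCm38.p6. This named 33767 probes and left 22838 unnamed. The files' grid uses another build, so no array coordinates are given, and promoter coordinates are those of RefSeq. A probe was kept if 3 or more of the 6 arrays read it well above background, and a gene was read by its kept probe of highest mean, which left 27103 rows. KCS was compared with KC by limma 3.58.1 (lmFit and eBayes, 2-sided, Benjamini-Hochberg over all rows, threshold 0.05) in R 4.3.3, checked on simulated data. No spot was saturated, and the number of arrays limits the precision. The alternatives were other scalings, filters, probe rules, slide and replicate blocks, array weights and leaving out each array. Every mitosis gene is named. Of the related lists, those called are named up to 4 a direction, by smallest p-value, with Foxm1, Mybl2, Lin54, E2f4 and Rbl2. The members, the related lists and the marker lists (acinar, ductal, macrophage, T and NK cell, neutrophil, fibroblast, endothelial) were chosen with earlier results of these data known. An allele that both groups share and 1 further marker list are not reported here.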

Additional observations from a re-analysis of the deposited data

How the results depend on the processing

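The count of 31 mitosis genes called higher stayed between 22 and 46 under every alternative that tested genes. With 1 array left out it ran between 22 and 35, the count called lower between 1 and 1, the median difference between 0.95 and 1.30, and the rows called in all between 13400 and 15282. These fits called between 21.1% and 24.3% of all rows higher, and between 28.4% and 33% lower. Median centring gave 40 genes higher and a median of 1.46, and 9 genes newly passed. Spike-in scaling gave 46 higher, 0 lower and a median of 3.90, and turned Spc24 to 1.33 and Hmmr to 2.62. Hmmr also turned under median centring, to 0.18. Median centring and spike-in scaling differ from the main fit only in the reference that each array is scaled to. Why these references differ between the groups was not tested. Normexp background correction with quantile normalization gave a median of 0.72, with 32 genes higher and 1 lower. Of all rows 28.5% were called in each direction, and the cause of the lower median was not tested. This correction was chosen after seeing the data and used median spot signals, since the planned one on mean signals was not run for want of a mean signal column.

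The second slide alone gave 38 higher, 0 lower and a median of 1.46, and the first slide alone a median of 0.49. On the first slide alone the sign turned in Birc5 (-0.23), Ccnb1 (-0.12), Ccnb2 (-0.17), Ccna2 (-0.14), Plk1 (-0.30), Cdc20 (-0.39), Cenpf (-0.32), Spc25 (-0.53), Nusap1 (-0.025) and Mki67 (-0.38). The cause was not tested. With 1 array left out, Hmmr ran between -0.38 and 0.049, with 0.049 without KCS replicate 1. Spc25 ran between -0.19 and 0.25, with -0.09 without KCS replicate 3.

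Without the filter on faint probes the rows called rose to 31885, of 46300 tested. Testing every probe without a filter, also chosen after seeing the data, called 38161 rows. It gave 44 mitosis probes higher (16.5% of all probes) and 3 lower (50.9%). In a refit kept to rows measured on all 6 arrays, 24 of 35 genes rose (24.7% of all rows in that fit) and 1 fell (42.7%). Pttg1 and Cenpk newly passed in this refit. The deposited value table gave 31 higher (25.9% of all rows) and 1 lower (34.4%).

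With the replicate number as a block, 26 genes were higher (25.3% of all rows) and 1 lower (35.3%), and Ttk, Aurka, Nusap1, Ect2 and Ncapg lost the call. The labels do not say that equal numbers pair the samples. Deviations of equally numbered arrays from their group means correlated at 0.33, 0.04 and 0.14 over genes, and KCS replicate 2 matched KC replicate 3 best, so the numbers were not taken as pairs. Faint signals limit 7 genes on KC arrays to bounds.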
